A study of Homo sapiens with 4 samples.

Results

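The genes for the replication-dependent histones were examined in RNA-seq libraries of glioblastoma (GBM) cells treated with brusatol (Bru), a plant-derived compound. They were taken as the protein-coding genes whose name begins with HIST1H, HIST2H, HIST3H or HIST4H, the cluster names of the annotation used by the authors. This gave 71 of the 58735 genes listed, with 6 for histone H1, 17 for H2A, 18 for H2B, 15 for H3 and 15 for H4. There were 4 groups of 1 library each. The groups U251 Control and U87 Control are cells of the established human GBM lines U251 and U87 without Bru, and the groups U251 Bru and U87 Bru are the same lines after 48 h of Bru at the IC50 of the line. Whether the Control cells received DMSO, the solvent of Bru, is not stated for these libraries. Both lines are established cultures that lack the other cells of a tumour, and each response is that of 1 culture per condition. With 1 library per condition there is no replicate error, so each ratio compares 2 libraries rather than 2 conditions, and no p-value is given.

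Histones package DNA. An octamer of H2A, H2B, H3 and H4 forms the core of the nucleosome, and the linker histone H1 binds where DNA enters and leaves it. The replication-dependent genes lie in clusters, have no introns in their classical form, and supply new histones while DNA is copied. Their messenger RNAs are the exception among those of animal cells in that they classically end in a short stem-loop, bound by the protein SLBP and cut with the help of the U7 small nuclear RNA, and not in a poly(A) tail. Some of these genes are also known to give polyadenylated transcripts that run past the stem-loop to a later signal, mainly in cells that divide little. A library made by poly(A) capture therefore reads such longer transcripts better than the classical ones. Whether poly(A) RNA was selected here is not given in the sources used here, which name total RNA, messenger RNA profiles and the NEB Next Ultra kit.

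Stem-loops mark where the classical end can form and say nothing on a later poly(A) end. Those of 8 members whose values are described below are printed here. They were searched in the GENCODE release 29 transcripts (GRCh38) as a 6-base stem that opens with GG, has T as its last base and is followed, after a 4-base loop, by the exact complement of the stem. The 16 bases of the match are in capitals with 5 flanking bases on each side, read on the strand of the gene.
HIST1H2AC (+), chr6:26124669-26124684: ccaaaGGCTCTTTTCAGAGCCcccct
HIST3H2A (-), chr1:228457369-228457384: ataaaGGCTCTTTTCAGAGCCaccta
HIST2H2BE (-), chr1:149886188-149886203: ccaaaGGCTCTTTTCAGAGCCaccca
HIST1H2BH (+), chr6:26252055-26252070: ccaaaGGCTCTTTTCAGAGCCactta
HIST1H2BD (+), chr6:26158587-26158602: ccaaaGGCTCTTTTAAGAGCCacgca
HIST1H3E (+), chr6:26225596-26225611: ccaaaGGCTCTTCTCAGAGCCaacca
HIST1H4H (-), chr6:26285131-26285146: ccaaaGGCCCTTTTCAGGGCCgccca
HIST1H4I (+), chr6:27139654-27139669: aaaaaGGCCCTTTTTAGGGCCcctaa
All 8 sites lie past the stop codon, in the 3′ UTR. A match stood in 31 of the 71 genes (43.7%), against 442 of 19684 protein-coding genes (2.25%) in the same annotation. The form of HIST1H2AC was the commonest, with 17 genes, and that of HIST1H3E stood in 1 gene. In HIST1H2AC the annotated transcripts with the stem-loop ran on for 1114 and 1128 bases past it, in HIST2H2BE for 1729 and in HIST1H2BH for 1640. HIST1H4H had transcripts of both kinds, ending between 18 and 1655 bases past the stem-loop. HIST1H2BD had 1 transcript that ended 39 bases past it and another that held no stem-loop.

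What a library can count for these genes is set by the annotated length. The gene length used by the authors equalled the coding sequence in 33 members, so that no read in a UTR could be assigned to them, whichever end the RNA had. These include HIST1H1C with 642 bases and HIST1H2BK with 381 bases. Another 12 members extended up to 300 bases beyond the coding sequence, and 26 extended further, among them HIST1H2AC, HIST1H4H and HIST2H2BE. The signal AATAAA stood in the last 50 bases of a transcript in 21 members. Over all 71 members it stood in 27 of 100 transcripts (27%), many of which end with the coding sequence and leave no room for it, against 35.5% of 83064 protein-coding transcripts. Sequence is also shared between members, since 14 of the 15 H4 genes encode 1 protein of 103 residues and 10 of the 15 H3 genes encode 1 protein of 136 residues. At the RNA level HIST1H2BK shared 74.1% of its 50-base stretches with other genes, HIST2H3D 80.4% and HIST1H2AI 62.3%, so that their reads depend on how matches to several genes were counted. HIST1H1C, HIST1H4H, HIST1H2BH, HIST1H2BG and HIST1H3H shared none.

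The FPKM allowed whole reads to be recovered, and the libraries held between 17083896 and 21453561 reads on genes. A ratio is given as the log2 of Bru over Control on these reads scaled by the library size inside the FPKM, with its exact 95% interval (Clopper-Pearson), which covers counting error only. A gene is called higher or lower in a Bru library here when this interval lies wholly above or below 0. Of the markers of GBM lines, VIM and CD44 were high in all 4 libraries, NES was far lower in U87 than in U251, and SOX2 had 0 and 2 reads in U87 Control and U87 Bru against 6790 and 4248 in U251. Of 16 markers of glial, neuronal, immune, epithelial or endothelial cells, 1 or 2 reached an FPKM of 1 in each library, and their part in the ratios was not tested.

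The histone members were a small part of each library and were more abundant with Bru in both lines. In U251 they held 1349 reads without Bru and 2025 with it, which is 64.3 and 109 CPM when scaled by the library size inside the FPKM. In U87 they held 4275 reads in Control and 5655 in Bru, or 237 and 325 CPM. Of the 71 members 61 had a read in at least 1 library, 10 had none, and 30 had fewer than 10 over the 4 libraries. Some of those with none lie mostly or wholly within exons of another gene. Their 0 need not mean that the RNA was absent, which was not tested. The reads were concentrated on few genes, with 44.6% on HIST1H1C and HIST1H2BK and 84.2% on the 10 members with the most reads. The HIST1 cluster on chromosome 6 held 55 members and 11079 reads, the HIST2 genes on chromosome 1 held 12 members and 880 reads, the HIST3 genes on chromosome 1 held 3 members and 1192 reads, and HIST4H4, alone on chromosome 12, held 153 reads.

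On the scale of FPKM, which allows for gene length, HIST1H2BK stood first with a mean of 102 over the 4 libraries and HIST1H1C second with 67.4. HIST3H2A followed with 17.1, HIST1H2AC with 11.3 and HIST1H4I with 10.03. The order was not the same in each library, as HIST1H1C was at 5.27 in U251 Control and at 153 in U87 Bru, where it passed the 142 of HIST1H2BK. In all, 19 of the 71 members reached a mean FPKM of 1.

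**Figure D1:**
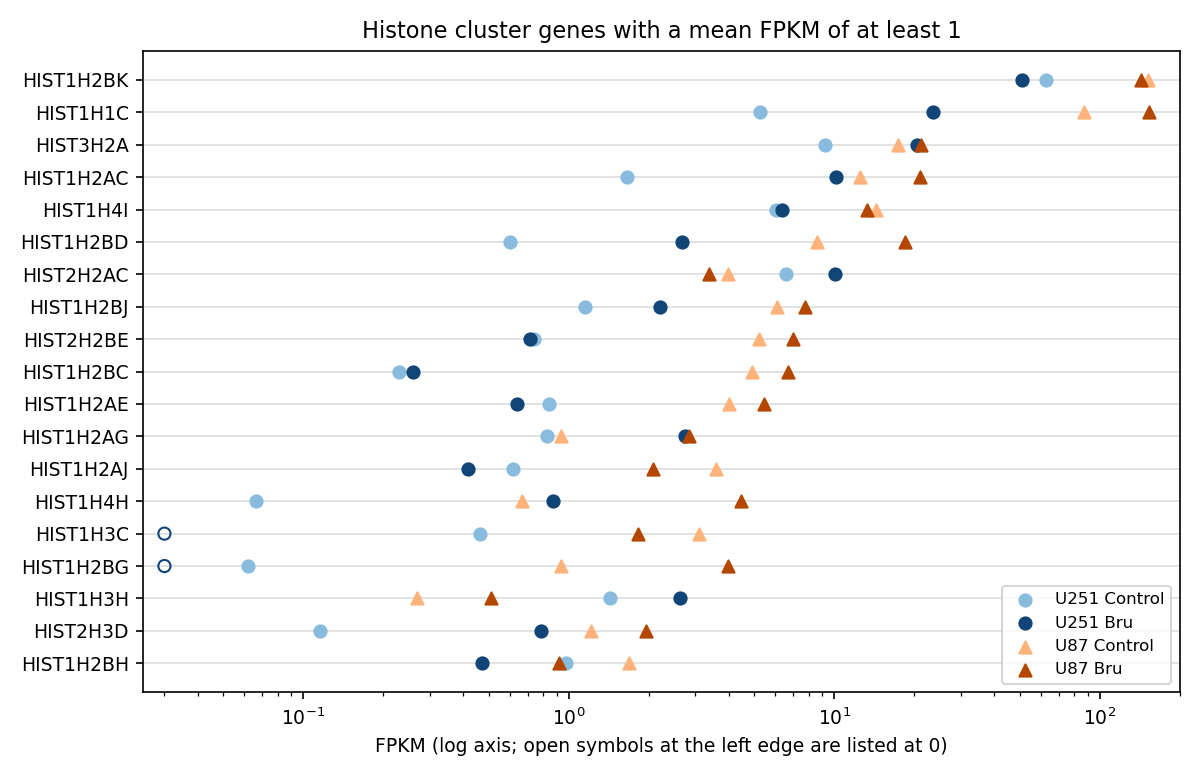
FPKM on a log axis of the 19 histone members whose mean FPKM reached 1, with 1 point per library (circles U251, triangles U87, pale Control, dark Bru). HIST1H1C, HIST1H2AC, HIST3H2A, HIST1H2BD, HIST1H2AG and HIST1H4H have the dark point to the right of the pale one in both lines, and most members stand further right in U87 than in U251.

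Summed by class, the ratio of Bru to Control over all members stood highest for H1, followed by H2A, although the H2A and H4 intervals overlap in U87. H1 stood at 2.16 (1.79 to 2.54) in U251, from 75 to 296 reads, and at 0.79 (0.68 to 0.90) in U87, from 1050 to 1747 reads. H2A stood at 1.48 (1.30 to 1.66) in U251, from 349 to 859 reads, and at 0.53 (0.40 to 0.66) in U87, from 832 to 1159 reads. These intervals lie above 0 in both lines. H2B stood at -0.08 (-0.25 to 0.09) in U251, from 653 to 546 reads, and at 0.25 (0.16 to 0.34) in U87, from 1770 to 2030 reads. H4 was at 0.40 (0.11 to 0.69) in U251, from 189 to 220 reads, and at 0.44 (0.26 to 0.62) in U87, from 448 to 586 reads. H3 had the fewest reads of the core histones, with 0.50 (0.07 to 0.94) in U251, from 83 to 104 reads, and -0.34 (-0.68 to -0.01) in U87, from 175 to 133 reads. The H3 interval in U87 held 0 under each of the 4 other scalings tried.

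The sums of H1, H2B and H4 rest mostly on 1 gene each, the same in both lines, while the leading gene of H2A and H3 differed between the lines. In H2A it was HIST3H2A in U251, with 42.5% of the reads, and HIST1H2AC in U87, with 49.4%. In H3 it was HIST1H3H in U251, with 51.9%, and HIST1H3E in U87, with 36.4%. HIST1H1C held 94.6% of the H1 reads in U251 and 97.5% in U87, and the other 5 H1 genes summed to 4 and 16 reads in U251 and to 38 and 32 in U87, a ratio of -0.19 (-0.92 to 0.52) in that line. HIST1H2BK held 71.8% and 52.4% of the H2B reads, and without it H2B was above 0 in both lines, at 0.47 (0.15 to 0.79) in U251 and 0.64 (0.50 to 0.78) in U87. HIST1H4I held 77.5% and 61.5% of the H4 reads, and without it H4 stood at 1.60 (0.92 to 2.33) in U251 and 1.42 (1.10 to 1.75) in U87. HIST1H2AC had the most H2A reads over the 4 libraries. Without it H2A kept its side, at 1.08 (0.88 to 1.29) and 0.33 (0.15 to 0.51). Without both HIST1H1C and HIST1H2BK, the remaining 69 members summed to 2.02-fold (1.85 to 2.21) in U251 and 1.40-fold (1.33 to 1.48) in U87.

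**Figure D2:**
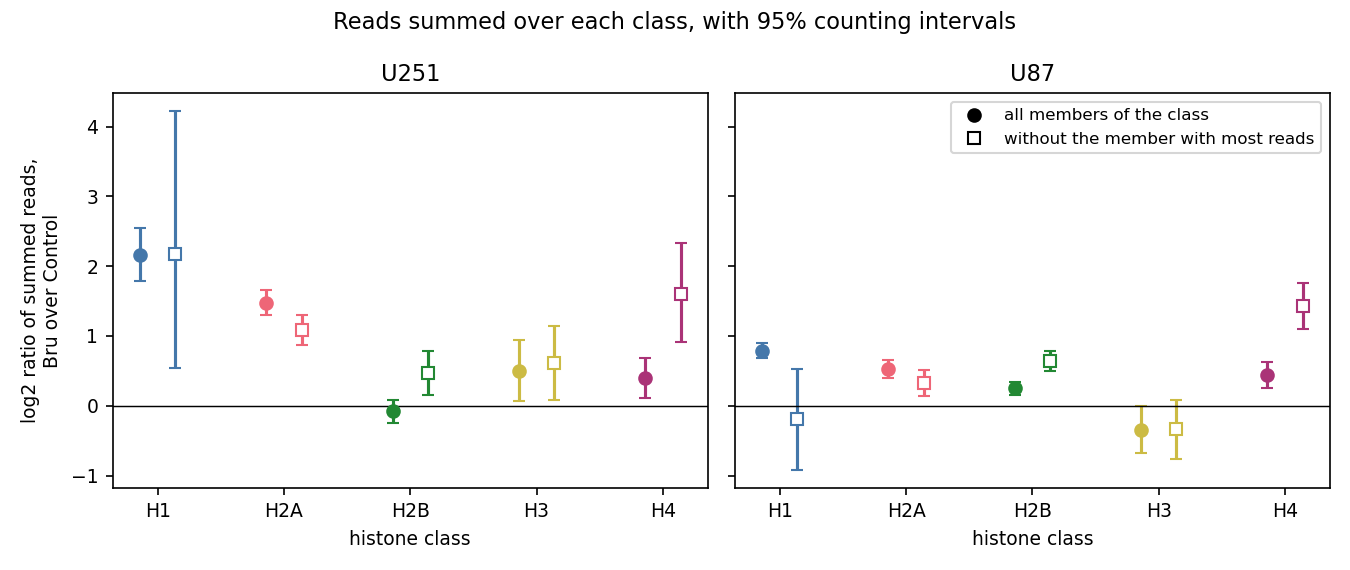
Log2 ratio of Bru over Control of the reads summed over each histone class in U251 (left) and U87 (right), with 95% counting intervals; filled circles use all members of a class and open squares leave out the member with the most reads. With all members H1 stands highest in both lines, H2B and H4 move up when HIST1H2BK and HIST1H4I are left out, and H1 of U87 falls to -0.19 without HIST1H1C.

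Among the linker histones, HIST1H1C (ENSG00000187837, chromosome 6 from 26055787 to 26056428), which encodes H1.2, had 71 reads in Control and 280 in Bru of U251, and 1012 and 1715 in those of U87. Both Bru libraries were above their Control, 4.46-fold in U251 and 1.76-fold in U87, yet the U251 Bru library stayed below the U87 Control library. HIST1H1E, which encodes H1.4, had 1, 11, 16 and 11 reads in this order, which is kept from here on, and was called higher in U251 at 3.64 with an interval as wide as 0.86 to 9.07. HIST1H1B, which encodes H1.5, had 3, 4, 20 and 2 reads and was lower in U87, at -3.27 (-6.41 to -1.23). HIST1H1D, which encodes H1.3, had 0, 1, 2 and 18 reads and was higher in U87, at 3.22 (1.16 to 6.38). The small H1 genes thus lay on both sides of 0 in U87, and their sum hides opposite ratios.

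In H2A, 4 genes were higher in U251 and 3 of these were also higher in U87. HIST1H2AC (ENSG00000180573, chromosome 6 from 26124145 to 26139116) had 58, 314, 376 and 608 reads, so that U251 Bru nearly reached U87 Control. Its ratio was 6.13-fold in U251 and 1.68-fold in U87, with intervals of 2.21 to 3.05 and 0.56 to 0.94 on the log2 scale. HIST3H2A had 173, 341, 282 and 329 reads, a ratio of 1.16 (0.89 to 1.43) in U251 and of 0.28 (0.04 to 0.51) in U87. HIST1H2AG differed from these 2 in that its values hardly depended on the line, with 39 and 114 reads in U251 and 38 and 111 in U87, and ratios of 1.73 (1.19 to 2.29) and 1.60 (1.06 to 2.17). HIST2H2AC had 54, 73, 28 and 23 reads and was higher in U251 only, at 0.61 (0.09 to 1.15), the U87 interval running from -1.09 to 0.62. HIST1H2AI, with 7, 6, 18 and 4 reads, was the H2A gene lower in U87, at -2.12 (-4.14 to -0.51).

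In H2B the leading gene lay below the sum of the others in both lines. HIST1H2BK (ENSG00000197903, chromosome 6 from 27146418 to 27146798) had 501, 360, 1047 and 944 reads. It was lower in U251, at -0.30 (-0.50 to -0.10), and its U87 interval held 0, at -0.10 (-0.22 to 0.03). HIST1H2BD had 11, 43, 135 and 280 reads and was higher in both lines, at 2.15 (1.17 to 3.25) and 1.11 (0.81 to 1.41). HIST1H2BG was nearly silent in U251, with 2 and 0 reads, and had 26 and 106 in U87, a 4.23-fold difference. HIST2H2BE was also mostly a U87 gene, with 34, 29, 207 and 267 reads and a ratio of -0.05 (-0.82 to 0.71) in U251 and 0.42 (0.15 to 0.69) in U87. HIST1H2BJ had 23, 39, 104 and 128 reads, higher in U251 at 0.94 (0.16 to 1.75), with an interval in U87 (-0.03 to 0.74) that just held 0. The only member lower in both lines was HIST1H2BH, with 42, 18, 63 and 33 reads and ratios of -1.04 (-1.93 to -0.22) and -0.88 (-1.53 to -0.25). HIST2H2BF and HIST1H2BE were also higher in U87, at 0.99 (0.37 to 1.63) and 1.93 (0.01 to 4.41), the latter on 3 and 11 reads, with 28.2% of its exon bases overlapped by another gene, and named after its values were seen.

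H3 genes gave few reads. HIST1H3E had 28, 30, 64 and 48 reads, and both its intervals held 0. HIST1H3H had 37 and 60 reads in U251, where it was higher at 0.88 (0.26 to 1.51), and 6 and 11 in U87, where a ratio of 0.93 had an interval of -0.63 to 2.65. HIST1H3G, in contrast, was a U87 gene with 4 and 3 reads in U251 and 50 and 30 in U87, where its interval (-1.39 to -0.00) ended at the edge of 0 and held 0 under the 4 other scalings. HIST1H3C had 4 and 0 reads in U251 and 23 and 13 in U87, and both intervals held 0.

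Of the H4 genes, which nearly all encode the same protein, HIST1H4I gave most reads and the least difference. It had 164, 153, 337 and 299 reads, with ratios of 0.08 (-0.25 to 0.41) and -0.12 (-0.35 to 0.11). HIST1H4H (ENSG00000158406, chromosome 6 from 26277609 to 26285638) had 3, 35, 26 and 167 reads, and is the member with the largest ratio in both lines among those with at least 30 reads. It was 13.2-fold higher in U251, with a log2 interval of 2.06 to 6.07, and 6.67-fold higher in U87, with an interval of 2.14 to 3.39. HIST4H4 had 14, 8, 50 and 81 reads and was higher in U87, at 0.75 (0.22 to 1.29), while its U251 ratio of -0.63 had an interval of -2.09 to 0.72. HIST1H4E had 35 reads in all and intervals that held 0 in both lines. HIST1H4C, named after its values were seen, had 0 and 11 reads in U251, where the lower limit of its log2 ratio was 1.51.

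**Figure D3:**
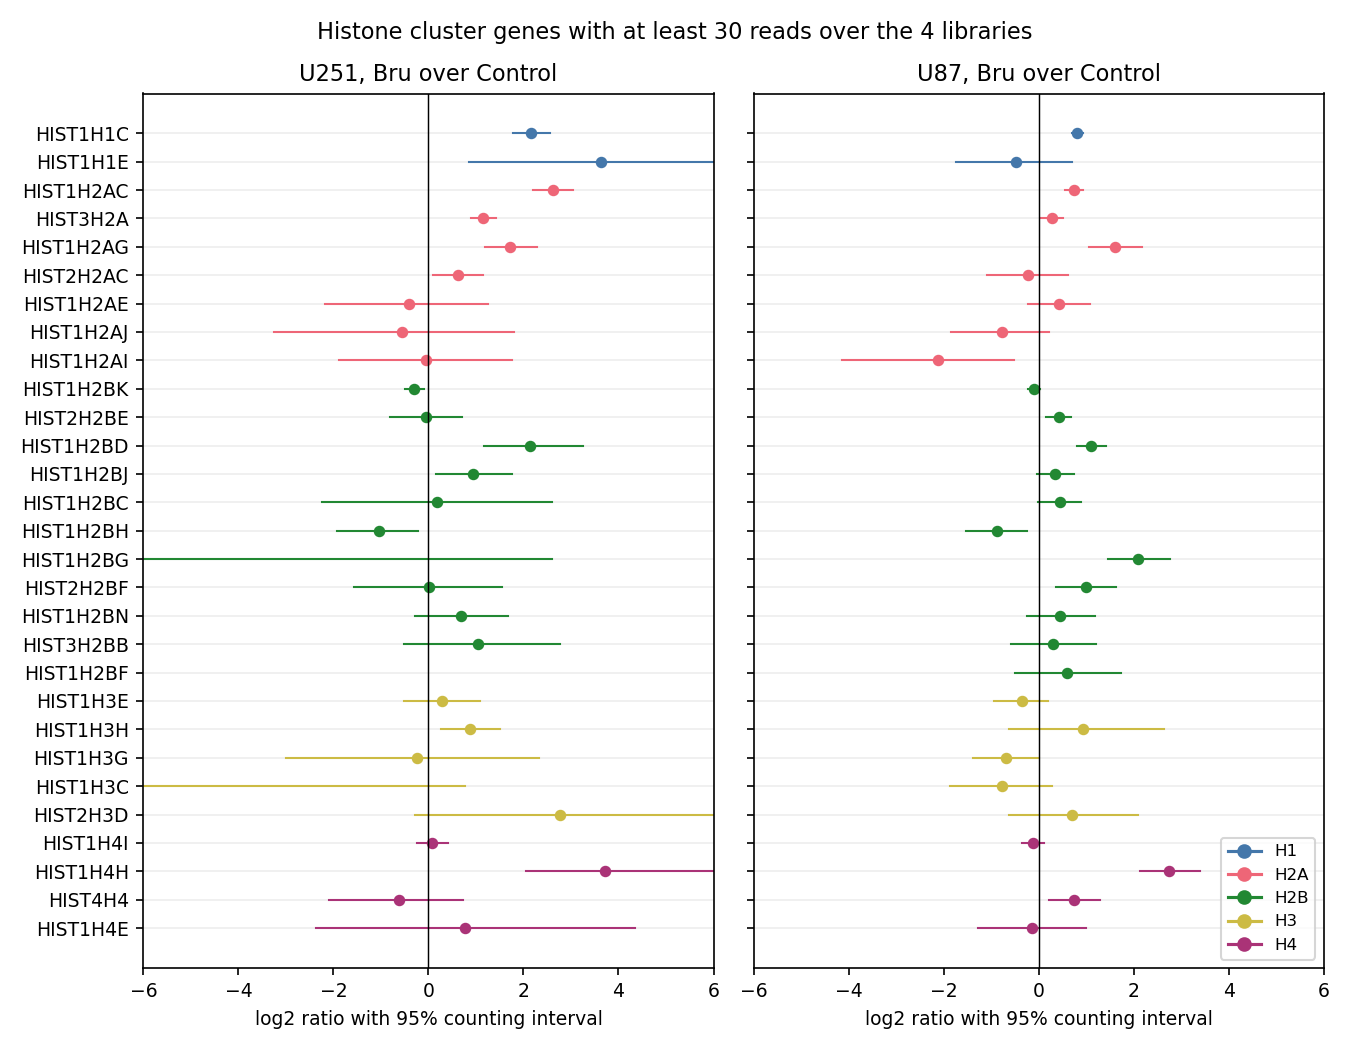
Log2 ratio of Bru over Control with its 95% counting interval for the 29 histone members with at least 30 reads, in U251 (left) and U87 (right), coloured by class. Intervals cut at -6 or 6 run on, a line with no point has 0 reads in 1 library, and a row with no line has 0 reads in both; HIST1H1C, HIST1H2AC, HIST3H2A, HIST1H2AG, HIST1H2BD and HIST1H4H lie above 0 in both panels and HIST1H2BH below 0 in both.

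Over the members with a read in the line, 11 of 51 (21.6%) were higher in U251, where the interval lay above 0 for 17.8% of all genes with a read, and 2 (3.92%) were lower, against 19.9% of all genes. In U87, 12 of 59 members (20.3%) were higher, against 9.67% of all genes, and 4 (6.78%) were lower, against 14.6%. Low reads widen the intervals, so the same was counted among genes with at least 10 reads in the line. There, 11 of 22 members (50%) were higher in U251 against 26.3% of all such genes, and 2 (9.09%) were lower against 30.4%. In U87, 12 of 39 members (30.8%) were higher against 14.4%, and 4 (10.3%) were lower against 22.6%. The median ratio of these members was 0.78 in U251 and 0.35 in U87, beside -0.03 in each line for all such genes. The 6 members higher in both lines were HIST1H1C, HIST1H2AC, HIST3H2A, HIST1H2AG, HIST1H2BD and HIST1H4H, and no member was higher in 1 line and lower in the other. The shares of all genes that did either are not given here, so these counts over both lines only describe.

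By size alone, on FPKM + 0.1, 7 of the 19 members whose mean FPKM reached 1 were past 2-fold higher in U251 and 4 in U87, where 3.36% and 1.92% of all 12949 such genes were. HIST1H4H (2.55 and 2.57), HIST1H2BD (1.98 and 1.10) and HIST1H2AG (1.61 and 1.50) were past 2-fold in both lines. HIST1H2AC, HIST1H1C, HIST2H3D and HIST3H2A were so in U251 alone, and HIST1H2BG in U87 alone. Past 2-fold lower stood 1 member in U251, HIST1H3C, on 4 and 0 reads, and 0 in U87, where 5.44% and 1.41% of all such genes were. HIST2H3D rests on 1 and 6 reads in U251, and its counting interval there held 0. A member high in a single library can pass this filter, so these counts only describe.

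The ratio was smaller in U87 than in U251 for H1, by -1.37 (-1.77 to -0.98), for H2A, by -0.95 (-1.17 to -0.72), and for H3, by -0.84 (-1.40 to -0.29). The H2B ratio was larger in U87, by 0.33 (0.14 to 0.52), and that of H4 differed by 0.04 (-0.30 to 0.39). These are differences of log2 ratios with conditional exact intervals, which cover counting error only. The larger ratios of U251 started from lower levels. U87 Control had more histone reads than U251 Control in every class, by 16.2-fold (12.8 to 20.8) for H1, 3.15-fold (2.87 to 3.45) for H2B, 2.77-fold (2.44 to 3.14) for H2A, 2.75-fold (2.32 to 3.28) for H4 and 2.45-fold (1.87 to 3.22) for H3. The intervals of H2B, H2A, H4 and H3 overlap, so their order is not settled. HIST1H1C was 16.5-fold higher in U87 Control, HIST1H2BD 14.2-fold and HIST1H2AC 7.52-fold. HIST1H2AG did not show this, at 1.13-fold with a log2 interval of -0.51 to 0.86. HIST2H2AC and HIST1H3H were lower in U87 Control, at 0.60-fold and 0.19-fold. In bulk RNA, fewer cells that copy DNA and less histone RNA per cell cannot be told apart.

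The link to the poly(A) tail was examined through the annotation. The 26 members extended by over 300 bases beyond the coding sequence summed to 673 and 1245 reads in U251, a ratio of 1.07 (0.93 to 1.20), and to 1961 and 2773 in U87, a ratio of 0.55 (0.47 to 0.64). The other 45 members summed to 0.38 (0.23 to 0.54) and 0.37 (0.29 to 0.45). The difference was 0.68 (0.48 to 0.89) in U251 and 0.18 (0.07 to 0.30) in U87. HIST1H1C weighs heavily on the second group. Among members annotated by the coding sequence alone, leaving it out moved the ratio from 0.37 to -0.14 (-0.32 to 0.03) in U251 and from 0.38 to -0.12 (-0.24 to 0.00) in U87, and in both cases over 80% of what remained was HIST1H2BK. The 43 members not extended, without both genes, stood at 0.61 (0.23 to 0.99) in U251 and -0.14 (-0.41 to 0.13) in U87. Of the 24 extended members with a read, 7 were higher and 1 lower in U251, and 10 were higher and 2 lower in U87. Of the members with the coding sequence alone, 2 were higher and 1 lower of 18 in U251, and 2 were higher and 1 lower of 26 in U87. Over all genes with a read the shares were 17.8% higher and 19.9% lower in U251, and 9.67% and 14.6% in U87. Among all genes with at least 10 reads in the line, they were 26.3% higher and 30.4% lower in U251, and 14.4% and 22.6% in U87. The groups differ in reads, since 20 of 26 extended members reached 30 reads against 6 of 33, and the difference in calls was not tested.

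**Figure D4:**
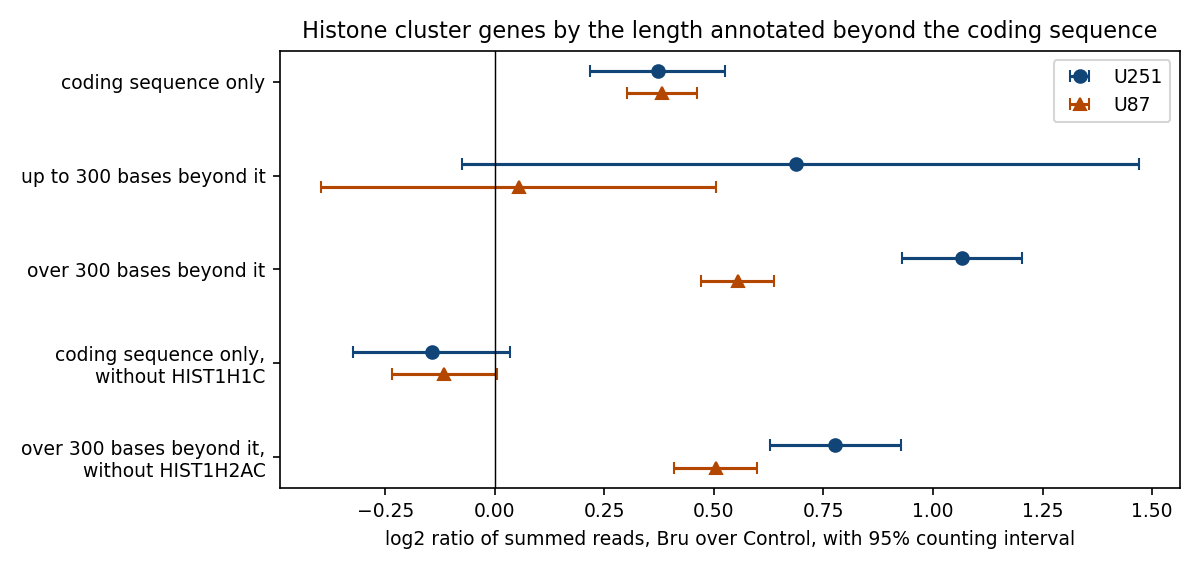
Log2 ratio of Bru over Control of reads summed over members grouped by how far the annotated gene extends beyond the coding sequence, with 95% counting intervals (circles U251, triangles U87). The extended members lie at 1.07 and 0.55, and the members with the coding sequence alone fall just under 0 without HIST1H1C.

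By sequence signals, chosen after the values were seen, the 21 members with AATAAA near a transcript end summed to 1.39 (1.20 to 1.59) in U251 and 0.71 (0.61 to 0.82) in U87, and the 50 without it to 0.50 (0.38 to 0.62) and 0.35 (0.28 to 0.42). HIST1H2AC gave 35.8% and 33.0% of the reads of the first group. HIST1H2BH, which has AATAAA, a stem-loop and 1679 bases beyond its coding sequence, was lower in both lines, and HIST1H4I, which has the stem-loop but no AATAAA near its end, was level. HIST1H2AG and HIST1H2BJ, which are extended, held AATAAA and had no exact match to the stem-loop in these transcripts. The 31 members with the stem-loop summed to 0.98 (0.84 to 1.12) and 0.52 (0.44 to 0.61), and the 40 others to 0.54 (0.40 to 0.69) and 0.41 (0.33 to 0.48). Since 33 of these 40 are annotated by the coding sequence alone, no stem-loop could be found in them, and the split follows the annotated length. Reads could not be placed before or after a stem-loop, since the files give 1 value per gene, and how the ratios divide between tailed and untailed RNA was not tested.

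RNA that classically lacks a poly(A) tail was present in all 4 libraries, but rested on few genes. Of a list of 29 such RNAs, matched by 30 gene entries, 17 entries had no read in any library, among them RN7SK, RMRP, RPPH1 and the listed U1, U2, U4 and U6 genes. RMRP has 2 entries over nearly the same bases of 1 strand. How reads that match several entries were counted is not given here, so 0 reads need not mean that an RNA was absent. MALAT1, a nuclear long non-coding RNA whose mature end is a triple helix, had 10928, 11031, 17380 and 16094 reads. RN7SL2, the RNA of the signal recognition particle, had 3542, 2677, 2998 and 2353 reads while its near copy RN7SL1 was listed at 0, so the split between them is uncertain. The list summed to 0.10 (0.07 to 0.14) in U251 and -0.09 (-0.11 to -0.06) in U87, and without MALAT1 to -0.20 (-0.27 to -0.13) and -0.26 (-0.34 to -0.18). Without MALAT1 and RN7SL2, it stood at 0.41 (0.06 to 0.77) and 0.48 (0.11 to 0.84) on 125 and 147 reads in U251 and 112 and 150 in U87, mostly of SNORA73B. By biotype, snoRNA genes summed to 0.23 (0.10 to 0.35) and 0.30 (0.18 to 0.43), snRNA genes to -0.23 (-0.40 to -0.06) and 0.30 (0.11 to 0.49), and scaRNA genes to -1.11 (-1.87 to -0.38) and 0.35 (-0.80 to 1.53). The snRNA sum is spread over many of 1909 entries, 277 with a read in U251 and 279 in U87. Its leading entry, RNU6-26P, held 8.07% and 8.92% of the reads. It does not rest on the listed U1, U2, U4 and U6 genes, and how far it reflects untailed snRNA was not tested. The snoRNA genes thus lay above 0 and RN7SL2 below 0 in both lines, while the whole list and the snRNA genes lay on opposite sides in the 2 lines. How far the snoRNA sum reflects untailed snoRNA was not tested, nor was the part of these RNAs in the histone ratios.

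Genes that work with the histones were read on the same FPKM + 0.1 scale where their mean FPKM reached 1. S phase genes, which copy DNA or license its copying, were below 0 in 20 of 20 cases in U251 with a median of -0.89 and 5 past 2-fold lower, CCNE1 (-1.40), CCNE2 (-1.17), E2F1 (-1.16), GINS2 (-1.14) and MCM6 (-1.02). In U87 they were below 0 in 16 of 20 cases with a median of -0.17, and 0 were past 2-fold, while the median of all genes was -0.03 and -0.04. Replication-independent histones, whose messages mostly carry poly(A) tails, were below 0 for 9 of 11 genes in U251 (median -0.32) and 8 of 11 in U87 (median -0.07). H1F0, the linker histone H1.0 typical of cells that have stopped dividing, had 2627, 5055, 197 and 312 reads and was the one past 2-fold higher in U251, at 1.12 in U251 and 0.71 in U87. H3F3A, which encodes H3.3 as does H3F3B, was at -0.999 and -0.33, and H3F3B at 0.37 and 0.15. H2AFZ, which encodes H2A.Z, was at -0.46 and -0.07. H2AFY2 was at 1.09 in U87, on 2 and 8 reads.

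Histone chaperones were below 0 for 10 of 12 genes in each line, with medians of -0.23 and -0.07. ASF1B and CHAF1A, which hand new H3 and H4 to DNA being copied, were past 2-fold lower in U251, at -1.17 and -1.01, and at -0.12 and -0.17 in U87. Genes for the processing and decay of histone RNA were above 0 for 8 of 12 in U251 (median 0.20) and 6 of 12 in U87 (median 0.00), and 0 were past 2-fold. SLBP, which binds the stem-loops printed above, had 2197, 1790, 2762 and 2360 reads, at -0.12 and -0.17. NPAT, the activator of histone transcription in S phase, was at -0.32 and 0.08, and LSM11 of the U7 particle at -0.08 and -0.39. For comparison, 10 genes with poly(A)-tailed messages used as references had medians of -0.02 and 0.10.

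**Figure D5:**
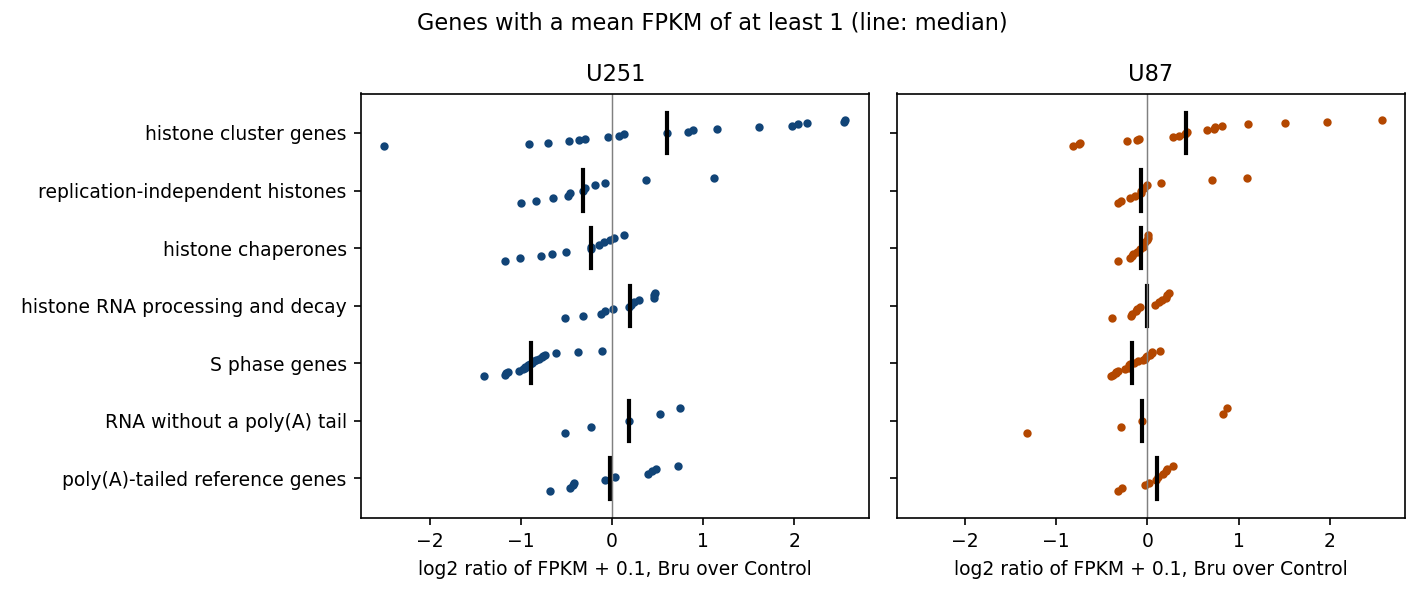
Log2 ratio of Bru over Control on FPKM + 0.1 in U251 (left) and U87 (right) for genes whose mean FPKM reached 1, with 1 point per gene and a bar at the median of each list. The histone cluster genes spread on both sides with medians of 0.61 and 0.42 over 19 genes, and the S phase genes lie below 0 in U251 with a median of -0.89.

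The promoters were compared because H2A and H2B genes often share one. In the RefSeq promoter table (GRCh38.p14, 250 bases before to 50 after the start), 61 of the 71 members were matched. On either strand, the octamer ATTTGCAT stood in 11 of 16 H2A and 12 of 15 H2B promoters and in 0 of those of H1, H3 and H4, against 1.77% of 35116 promoters. TATAAA stood in 40 of 61 (65.6%) against 11.5% of all, and CCAAT in 51 of 61 (83.6%) against 34.6%, with 3 of 13 for H4. Windows of facing pairs overlap, so that 1 octamer can count for both genes. The 120 bases before the start of HIST1H1C, the leading H1 gene, and of HIST1H2AG and HIST1H2BJ, a pair that faces apart, are given with these motifs, on either strand, in capitals.
HIST1H1C (-), chr6:26056471-26056590: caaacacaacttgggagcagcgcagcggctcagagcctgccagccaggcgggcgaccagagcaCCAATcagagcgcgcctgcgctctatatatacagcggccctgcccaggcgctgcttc
HIST1H2AG (+), chr6:27132923-27133042: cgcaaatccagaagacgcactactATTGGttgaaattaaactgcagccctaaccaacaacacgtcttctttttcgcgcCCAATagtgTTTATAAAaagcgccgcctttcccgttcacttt
HIST1H2BJ (-), chr6:27132796-27132915: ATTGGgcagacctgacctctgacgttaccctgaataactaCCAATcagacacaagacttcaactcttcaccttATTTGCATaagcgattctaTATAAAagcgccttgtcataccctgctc
Matched H2A and H2B genes with the octamer summed to 1.30 (1.10 to 1.51) in U251 and 0.60 (0.49 to 0.72) in U87, and the 8 matched genes without it, mostly HIST3H2A by reads, to 1.07 (0.83 to 1.32) and 0.23 (0.02 to 0.44). HIST1H2BK and HIST1H2BD had no matched promoter and stand in neither sum. HIST1H2BK, with 71.8% of the H2B reads in U251 and 52.4% in U87, was at -0.30 and -0.10. HIST1H2BD was at 2.15 and 1.11. A match describes these letters only.

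In 11 cases an H2A and an H2B gene stood on opposite strands with starts 219 to 331 bases apart. The reads of a pair over the 4 libraries, which are not corrected for gene length, ranged from near-equal to far apart. HIST1H2AG had 302 and its partner HIST1H2BJ 294, and HIST1H2AE had 100 and HIST1H2BG 134. HIST1H2AC had 1356 while HIST1H2BC had 179, and HIST1H2AH had 6 while HIST1H2BK had 2852. The ratios of a pair were compared where both genes had at least 20 reads in the line. For HIST1H2AG and HIST1H2BJ, the H2A ratio exceeded that of H2B by 0.78 (-0.21 to 1.76) in U251 and by 1.24 (0.57 to 1.94) in U87. For HIST1H2AE and HIST1H2BG in U87 the H2A ratio was the smaller, by -1.64 (-2.59 to -0.71). The intervals of the other 4 comparisons, of HIST2H2AC with HIST2H2BE in both lines and of HIST1H2AC with HIST1H2BC and HIST3H2A with HIST3H2BB in U87, held 0 and were wide, the narrowest running from -0.19 to 0.79.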

How the data were processed

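Total RNA of U251 and U87 cells, as Control and after 48 h of Bru, gave 1 paired-end library per condition. The authors deposited FPKM per gene with the gene lengths used, per the file headers. The submitters' processing notes name, among others, HISAT2 2.0.5, StringTie 1.3.3b, featureCounts 1.5.0-p3 and hg18, but the coordinates of all 58735 genes equal GENCODE release 29 (GRCh38). Poly(A) selection and strand are not given in the sources used here, so overlapping antisense genes cannot be told apart. FPKM times gene length was a whole multiple of 1 step for 100% of values (largest deviation 4.35e-05 reads), which gave the reads. The library sizes inside the FPKM were 17406238 to 20974002. A floor of 3 reads for 1 kb is an FPKM of 0.143 to 0.172. Ratios have exact Clopper-Pearson 95% intervals, and differences of ratios have conditional exact odds-ratio intervals (Python 3.11.15, SciPy 1.17.1). A 2-fold count uses FPKM + 0.1 and a mean FPKM of at least 1. Members with at least 30 reads could be named, with full values for the 4 with most reads per class, the 6 with the largest ratio per line (at least 20 reads, interval on 1 side of 0) and any with opposite sides. Scripts were tested on simulated data. The members and lists were chosen with earlier results of these data known.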

Additional observations from a re-analysis of the deposited data

Results flagged for a closer look

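The H3 genes, summed, were above 0 in U251 (0.50) and below 0 in U87 (-0.34), so their counting intervals lay on opposite sides in the 2 lines. The difference between lines could not be tested over samples, with 1 library per condition. The U87 interval held 0 under each of the 4 other scalings.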

How the results depend on the processing

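No paired analysis was possible because each condition had 1 library and the labels carry no replicate numbers, and for the same reason no library could be left out. The 4 other scalings moved every log2 ratio up by 0.03 to 0.09 and turned no class sum whose interval lay on 1 side of 0, although the intervals of H3 and HIST1H3G in U87 then held 0 and those of HIST1H2BJ and HIST1H2BC in U87 lay above 0. The all-member sum moved to 0.63 in U251 and 0.33 in U87 without HIST1H1C, to 0.46 and 0.33 with summed FPKM, and, in an alternative added after seeing the data, to 1.16 and 0.61 without members that share over 50% of their 50-base stretches. H2B without such members, like H2B without HIST1H2BK, was at 0.47 and 0.64. Without its member with most reads, H2A was at 1.08 and 0.33, H4 at 1.60 and 1.42, and H1 of U87 turned to -0.19. With summed FPKM, H2A was at 1.13 and 0.30 and H2B of U87 at 0.072. Members past 2-fold higher numbered 14 in U251 and 13 in U87 with no filter, 14 and 10 at a minimum mean FPKM of 0.1, and 4 and 1 at a minimum of 5. Members past 2-fold lower numbered 9 and 9 with no filter, 7 and 7 at the minimum of 0.1, and in U251 0 at the minimum of 5, 0 with a pseudocount of 1 and 3 with 0.01. The shares of all genes under these settings are not given here, so these counts of members only describe. With 99% intervals 1 member was lower in U251. The difference of the extended members from the others was 0.38 in U251 when split at a gene length of 1000 bases, and 0.61 in U87 without the leading member of each side. The summed RNAs without a tail turned to -0.20 in U251 and moved to -0.26 in U87 without MALAT1, moved to 0.41 in U251 and turned to 0.48 in U87 also without RN7SL2 (added), and moved to -0.046 in U87 with the median set to 0. The following were also added after seeing the data. Without the leading member, the U87 to U251 ratio of the Control libraries was 1.57 for all members, 3.46 for H1, 0.86 for H2A, 2.46 for H2B and 2.37 for H4 on the log2 scale, and the H1 difference between lines was -2.35. With a pseudocount of 1, 0 replication-independent histones were past 2-fold higher in U87, 1 chaperone was lower in U251 and 3 S phase genes were lower in U251, and 1 chaperone was so with the median set to 0. The causes were not tested. Of the alternatives for these results, 175 left the value within its interval or the count within 1.5 times, 46 moved it further and 3 turned its direction. Depth limits many members, since 30 of 71 had fewer than 10 reads. For some of these, overlap or shared sequence with other genes may also limit the reads, which was not tested.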
